A study of Mus musculus with 6 samples.

Results

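The proteasome genes of mouse liver were followed after vertical sleeve gastrectomy (VSG), in which a large portion of the stomach is taken out. They were taken as every protein-coding gene whose symbol starts with Psma, Psmb, Psmc, Psmd, Psme, Psmf or Psmg followed by a digit. The rule found 50 of the 55385 genes counted, among 21897 that are protein-coding. Of the 50 genes, 31 encode constitutive subunits of the proteasome, 5 encode the immunoproteasome set (Psmb8, Psmb9, Psmb10, Psme1 and Psme2), and 14 encode assembly chaperones, other regulators or tissue-restricted members. The 5 and the 31 were set against each other. Poly(A) RNA was sequenced from the livers of 3 Sham and 3 VSG male C57BL/6 mice, each library coming from 1 animal. Mice of both groups were 6 to 8 weeks old when the high-fat diet (HFD) began, had it for 10 weeks before either operation and for 12 weeks after it. No transgene or deletion is given for either group. Feeding and body weight after the operation were not recorded for these samples in the sources used here, so the effects of the operation and of weight loss cannot be told apart.

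The proteasome is the protease that degrades ubiquitin-tagged proteins in the cytosol and nucleus. Its 20S core is a barrel of alpha and beta rings, with the cutting sites on the beta subunits encoded by Psmb5, Psmb6 and Psmb7. The 19S regulatory particle, with a ring of ATPases (Psmc genes) and further subunits (Psmd genes), binds, unfolds and feeds in the substrate. Under interferon gamma, newly built cores take up Psmb8, Psmb9 and Psmb10 in place of Psmb5, Psmb6 and Psmb7, and the result is the immunoproteasome, which cuts peptides for presentation on MHC class I. Psme1 and Psme2 encode the PA28 activator, which is induced with it. In liver, hepatocytes have mostly constitutive proteasomes, and immune cells are rich in the inducible subunits.

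Published binding motifs for the regulators of both branches were looked up in the promoters of these genes, taken from RefSeq (GRCm38.p6) as 250 bases before to 50 bases after the transcription start. A promoter was found for 42 of the 50 genes. The antioxidant response element, bound by NRF1 and NRF2 (the products of Nfe2l1 and Nfe2l2), was searched as TGACNNNGC, and like the other motifs it was searched on both strands. It was present in 6 of the 42 genes (14.3%) and in 14.0% of the 27025 genes with a promoter. The gamma-activated sequence, a motif of interferon gamma target genes, was searched as TTCNNNGAA. It was present in 3 of the 42 genes (7.14%) and in 9.55% of all genes. The interferon-stimulated response element was present in 5 genes (11.9%), against 3.99% of all genes. The CCAAT box (CCAAT) was present in 15 genes (35.7%), against 41.1% of all genes. A match describes letters in a window and no binding was measured. The antioxidant and interferon motif matches in catalytic subunits and in PA28 are shown here with 10 bases on each side, read in the direction of the gene, with the motif in capitals. The first pair comes from constitutive catalytic genes and the second pair from immunoproteasome genes. They lie at chr14:54618024-54618052 (minus strand), chr11:70525338-70525366 (plus strand), chr17:34198088-34198116 (plus strand) and chr14:55578493-55578522 (plus strand, where the motif is read on the other strand), in that order.
Psmb5: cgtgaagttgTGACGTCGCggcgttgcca
Psmb6: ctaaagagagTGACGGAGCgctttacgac
Psmb8: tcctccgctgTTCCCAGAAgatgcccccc
Psme1: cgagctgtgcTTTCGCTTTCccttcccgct
The first base of the motif lay 47 bases before the start in Psmb5, 9 bases before it in Psmb6 and 97 bases before it in Psmb8. In Psme1 it was base 10 after the start. The Psmb8 match lies inside the first exon of a longer GENCODE transcript of that gene. Psmb9 and Psmb10 held neither the antioxidant nor an interferon motif in these windows. Psmb9 held a CCAAT box on the other strand, with its first base 8 bases before the start.

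Total counts ran from 22804397 to 24191778 per library, and the 50 genes took 0.271% to 0.298% of the counts of the sham livers and 0.221% to 0.233% of those of the VSG livers. Levels are given in CPM (counts scaled to library size with TMM factors) as mean ± SD (n = 3), and 3 counts correspond to 0.124 to 0.132 CPM before that scaling. The SD is over the 3 livers of a group, and the floor of 3 counts covers counting error only. Expression was compared with edgeR's quasi-likelihood test over all 14454 genes that passed a filter on low counts, and a gene was called changed at an adjusted p under 0.05. All adjusted p-values are Benjamini-Hochberg values over those genes from edgeR unless another tool is named.

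Of the proteasome genes, 4 passed the test, all lower in VSG livers, and most of the others had small negative values that did not pass. Of the 50 genes, 49 were tested and 44 had a negative log2 fold change (89.8%, against 47.6% of all genes tested). Psmb9 (an inducible catalytic subunit), Psmd8 and Psmd14 (19S subunits) and Psmf1 (a proteasome inhibitor) fell, and no gene rose. These 4 genes are 8.16% of the 49, close to the 7.87% of all tested genes that fell (6.79% rose and 14.7% changed in either direction). The groups did not overlap in 22 of the 49 genes, all lower in VSG livers, whereas 19.8% of all genes did not overlap in that direction and 19.8% in the other (39.7% in either). Without adjustment, 15 of the 49 genes had a p under 0.05, against 33.9% of all genes. The share of members called was thus near the background, while the share of negative values and of genes lower without overlap was above it. The same 4 genes were called by limma-voom, with RLE size factors, with no filter beyond 1 count and with at least 10 counts in every library, where 7.26%, 7.94%, 4.70% and 8.08% of all genes were called lower. DESeq2 called 9 members lower (background 12.3%) and scaling by total counts 12 (background 10.5%), none of them higher. The number of members called was 3, 2 and 0 without Sham 1, 2 and 3 (background 5.11%, 3.31% and 0.748%) and 2, 3 and 0 without VSG 4, 5 and 6 (background 3.95%, 9.59% and 0.812%).

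**Figure D1:**
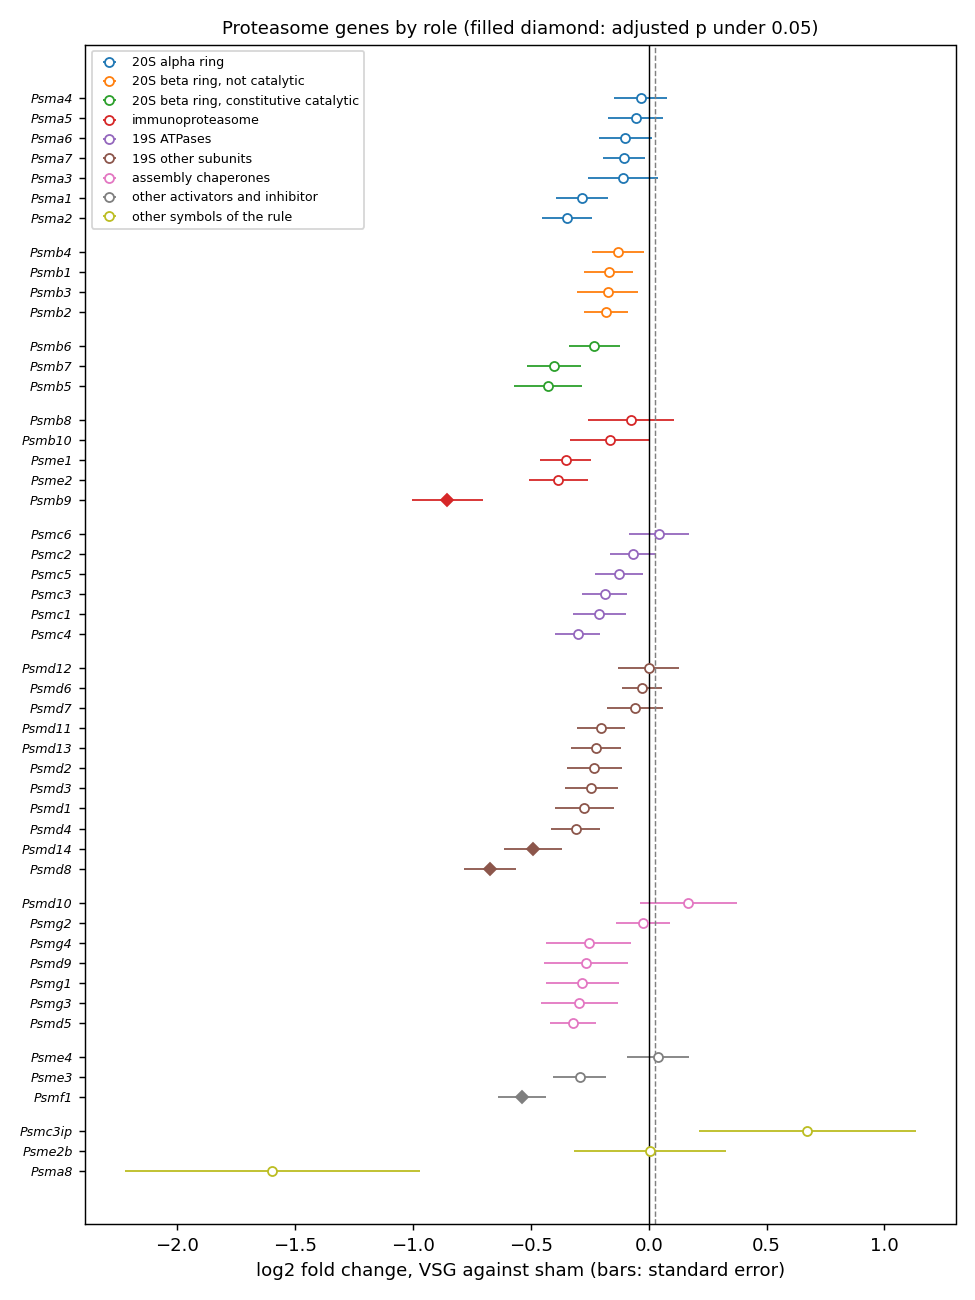
Log2 fold change (VSG against sham, horizontal axis) of the 49 tested proteasome genes, grouped by role, with bars for the standard error. Filled diamonds mark the 4 genes with an adjusted p under 0.05, the solid line is no change and the dashed line is the median of all genes tested (0.03), and 44 of the 49 points lie left of the solid line.

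The median log2 fold change was -0.21 over the 49 genes and 0.03 over all genes tested. Scaling by total counts in place of TMM moved the median of all genes to -0.11 and that of the proteasome genes to -0.34, so the distance between them was -0.24 in the first case and -0.23 in the second. The summed CPM of the 31 constitutive subunits was 2027, 2351 and 2166 in Sham 1, 2 and 3 and 1846, 1857 and 1954 in VSG 4, 5 and 6. Every VSG liver was below every sham liver, and the mean was 0.864 times that of sham. The summed CPM of the 5 immunoproteasome genes was 151, 154 and 179 in the sham livers and 147, 112 and 126 in VSG livers (0.795 times). Here the groups were nearly in contact, since VSG 4 was just under the lowest sham liver. In bulk tissue, fewer cells of a type and less RNA per cell cannot be told apart.

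The immunoproteasome genes had a median log2 fold change of -0.35 and the constitutive subunits -0.19. The difference of -0.16 was about as large as the SD of the same quantity over livers of a group (0.159, the larger of the 2 groups), and was not tested. Leaving out each library in turn placed it between -0.24 and -0.09. Of the 5 immunoproteasome genes, 1 fell, and the groups did not overlap in 3. Of the 31 constitutive genes, 2 fell (6.45%, against 7.87% of all genes tested), the groups did not overlap in 15 (48.4%, against 19.8% in that direction), and 30 had a negative value (96.8%, against 47.6%).

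**Figure D2:**
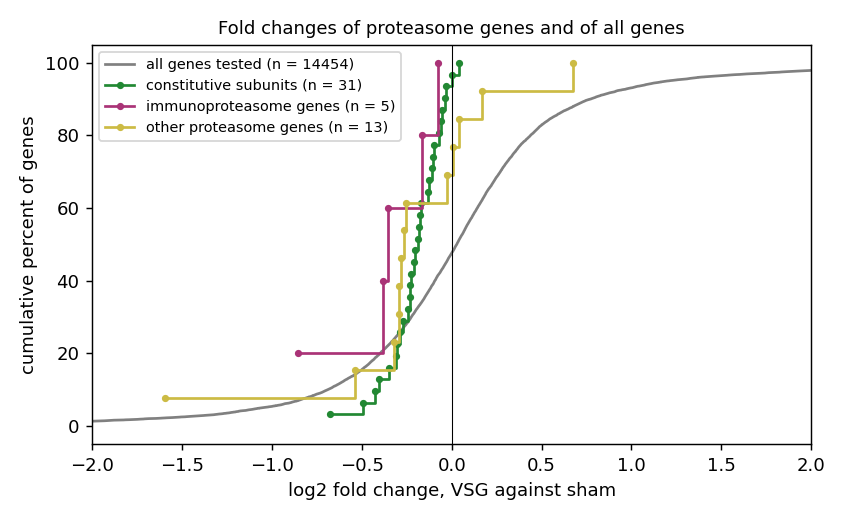
Cumulative percent of genes (vertical axis) at or below each log2 fold change (horizontal axis, drawn from -2 to 2) for all 14454 genes tested and for 3 classes of proteasome genes. The constitutive curve is steep and narrow, from -0.67 to 0.04, the 5 immunoproteasome genes spread from -0.85 to -0.08, and all genes spread widely to both sides of 0.

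Among the immunoproteasome genes the members did not move alike. Psmb9 encodes LMP2, which takes the place of the Psmb6 product in the core. Its level was 20.4, 20.6 and 23.4 CPM in the sham livers and 13.8, 9.69 and 12.1 CPM in the VSG livers. The lowest sham liver was well above the highest VSG liver. Psmb9 fell by 44.7% (21.5 ± 1.69 against 11.9 ± 2.08 CPM, log2 fold change -0.85, SE 0.152, adjusted p = 0.0196 by edgeR). The call was lost without Sham 3 (adjusted p = 0.0930 by edgeR) and without VSG 6 (adjusted p = 0.0777 by edgeR), where the log2 fold change was -0.79 and -0.87. In those same 2 fits only 0.748% and 0.812% of all genes were called lower.

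Psmb8 encodes LMP7, which replaces the Psmb5 product. It was measured at 28.1, 28.7 and 33.2 CPM in the sham livers and 36.6, 23.0 and 25.9 CPM after VSG. VSG 4 was the highest of the 6 livers and VSG 5 the lowest, so the groups overlapped fully. The log2 fold change was -0.08 (SE 0.184, adjusted p = 0.792 by edgeR), and its sign turned without VSG 5 (0.03). Psmb10 encodes MECL-1, which replaces the Psmb7 product. Its level was 19.1, 17.9 and 23.8 CPM in the sham livers and 21.2, 14.8 and 18.3 CPM after VSG, again overlapping (log2 fold change -0.16, SE 0.172, adjusted p = 0.525 by edgeR). Neither inducible partner of Psmb9 passed the test, and their standard errors leave room for changes of the size seen in constitutive subunits.

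Both PA28 genes were lower without overlap, as were 19.8% of all genes tested, but did not pass the test. Psme1, for the alpha subunit, was at 65.2, 67.5 and 78.2 CPM in the sham livers and 59.7, 51.5 and 54.0 CPM after VSG (log2 fold change -0.35, SE 0.110, adjusted p = 0.0745 by edgeR). DESeq2 called it (adjusted p = 0.0351). Psme2, for the beta subunit, was at 17.7, 19.2 and 20.2 CPM in the sham livers and 15.8, 12.6 and 15.3 CPM after VSG (log2 fold change -0.38, SE 0.124, adjusted p = 0.0823 by edgeR). The pair lies 5911 bases apart on chromosome 14, at 55578123-55581529 (plus strand) and 55587441-55591113 (minus strand). The ratio of Psme1 to Psme2 counts was 3.51 to 3.87 in the sham livers and 3.52 to 4.08 in the VSG livers, so the groups overlapped in this ratio.

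**Figure D3:**
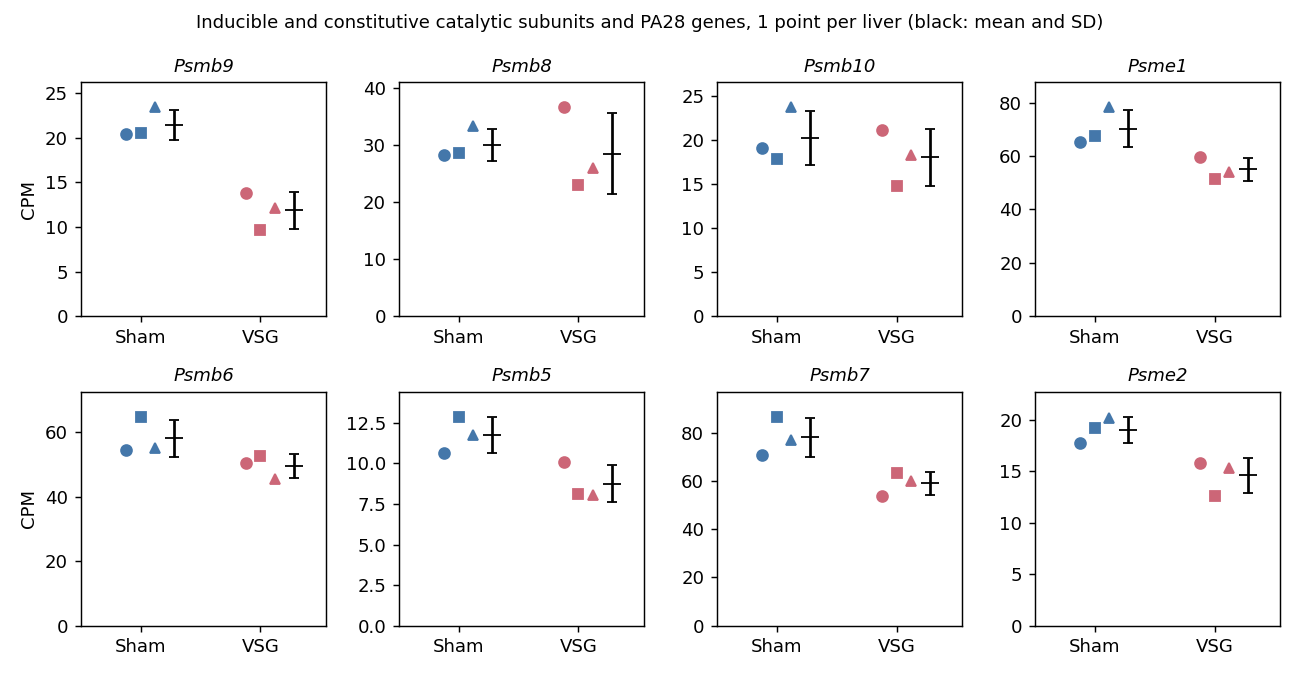
Level in CPM (vertical axes, each from 0) of the inducible catalytic subunits Psmb9, Psmb8 and Psmb10, their constitutive counterparts Psmb6, Psmb5 and Psmb7 below them, and the PA28 genes Psme1 and Psme2 at the right. Each point is 1 liver (circle, square and triangle for the animals of a group in the order of their numbers), black marks give mean and SD, and Psmb9 has the widest separation while Psmb8 and Psmb10 overlap.

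The 3 constitutive catalytic subunits were all lower in VSG livers without overlap, as were 19.8% of all genes tested, and none of the 3 passed the test. Psmb5 encodes the chymotrypsin-like site. It was at 10.7, 12.9 and 11.8 CPM in the sham livers and 10.1, 8.11 and 8.05 CPM after VSG (log2 fold change -0.43, SE 0.145, adjusted p = 0.0923 by edgeR). Psmb7, for the trypsin-like site, was at 70.6, 86.7 and 77.0 CPM in the sham livers and 53.7, 63.3 and 60.1 CPM after VSG (log2 fold change -0.40, SE 0.114, adjusted p = 0.0599 by edgeR). It was called by DESeq2 (adjusted p = 0.0240) and under scaling by total counts (adjusted p = 0.0264 by edgeR). Psmb7 shares 405 exon bases with Nek6 on the other strand, so its counts carry the same doubt about strand as other overlapping genes. Psmb6, for the caspase-like site, was at 54.5, 64.8 and 55.1 CPM in the sham livers and 50.5, 52.6 and 45.5 CPM after VSG (log2 fold change -0.23, SE 0.108, adjusted p = 0.184 by edgeR). The gap was narrow for Psmb5 and Psmb6, where the highest VSG liver nearly reached the lowest sham liver.

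Setting each inducible subunit against the subunit it replaces within the same library removes the scaling between libraries. The count ratio of Psmb9 to Psmb6 was 0.374, 0.318 and 0.425 in the sham livers and 0.274, 0.184 and 0.266 in VSG livers. Every VSG liver was lower, with a difference of -0.64 in log2 ratio (exact permutation p = 0.1, two-sided, adjusted over 3 ratios 0.15). The ratio of Psmb8 to Psmb5 moved the other way, from 2.64, 2.23 and 2.83 in sham to 3.63, 2.84 and 3.21 in VSG livers. Every VSG liver was higher, though Sham 3 and VSG 5 almost met (difference in log2 ratio 0.33, exact permutation p = 0.1, two-sided, adjusted 0.15). The ratio of Psmb10 to Psmb7 was 0.271, 0.206 and 0.308 in the sham livers and 0.394, 0.233 and 0.304 in VSG livers, which overlapped (difference in log2 ratio 0.23, exact permutation p = 0.5, two-sided, adjusted 0.5). With 3 livers against 3 the exact test cannot go below 0.1, so none of the ratios could pass the threshold.

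Psmb9 also separated from the other inducible subunits, a comparison chosen after the values were seen and given as a description. The count ratio of Psmb9 to Psmb8 was 0.725, 0.718 and 0.704 in the sham livers and 0.378, 0.421 and 0.468 in VSG livers. That of Psmb9 to Psmb10 was 1.07, 1.15 and 0.986 in the sham livers and 0.652, 0.656 and 0.661 in VSG livers. The ratios varied little within a group and were far apart between groups. The ratio of Psmb8 to Psmb10 was 1.47, 1.60 and 1.40 in the sham livers and 1.72, 1.56 and 1.41 in VSG livers, with overlap.

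**Figure D4:**
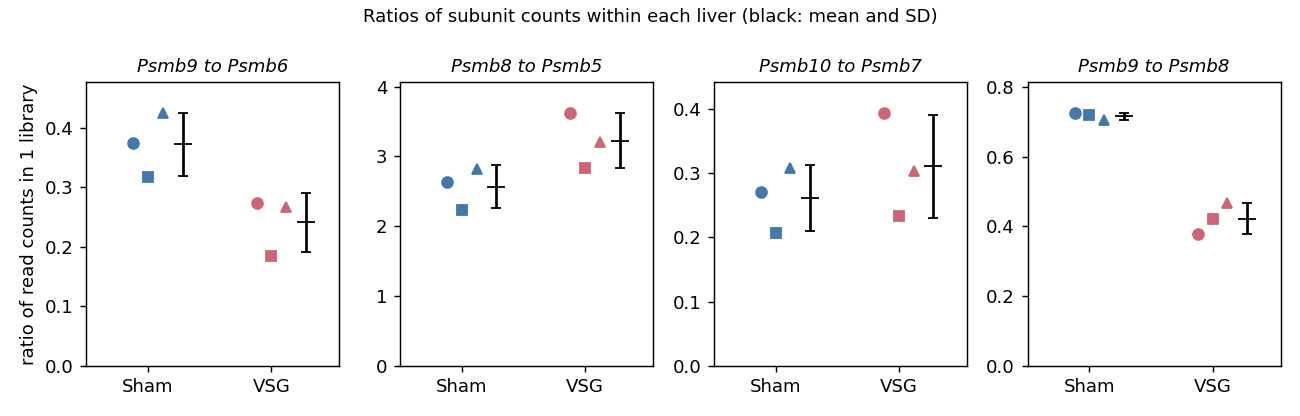
Ratio of read counts of 2 subunits within each library (vertical axes, each from 0), for the 3 pairs of an inducible and a constitutive subunit and for Psmb9 to Psmb8. Each point is 1 liver and black marks give mean and SD. The ratios with Psmb9 on top were lower in every VSG liver, Psmb8 to Psmb5 was higher in every VSG liver, and Psmb10 to Psmb7 overlapped.

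Expressed per kilobase of exon, the inducible subunit made up 40.4% ± 2.94 of the Psmb8 and Psmb5 pair in the sham livers and 46.1% ± 3.05 in VSG livers. For Psmb9 and Psmb6 the share was 16.0% ± 1.93 in the sham livers and 11.0% ± 2.04 in VSG livers. For Psmb10 and Psmb7 it was 34.2% ± 4.55 in the sham livers and 38.0% ± 6.14 in VSG livers. These levels depend on the length used, since with the length of the principal transcript the sham shares became 58.5% for Psmb8, 18.0% for Psmb9 and 18.7% for Psmb10.

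Psmb9 and Psmb8 lie in the MHC region of chromosome 17 (GRCm38, also called mm10), interleaved with the peptide transporter genes Tap1 and Tap2. Psmb9 spans 34181987-34187764 on the minus strand and Tap1 spans 34187553-34197225 on the plus strand. They overlap head to head by 212 exonic bases, 5.79% of the exon bases of Psmb9, so that reads there could be lost or shared where the counting did not use strand. Psmb8 follows at 34197721-34201454 and Tap2 at 34203527-34216321, both on the plus strand. Tap1 was at 43.3, 37.6 and 44.8 CPM in the sham livers and 32.8, 29.9 and 30.5 CPM after VSG. All VSG livers were lower, and Tap1 fell (log2 fold change -0.43, SE 0.101, adjusted p = 0.0357 by edgeR), although 6 of 12 alternatives, total counts and 5 of the fits without 1 library, did not call it (adjusted p up to 0.141 by edgeR). Tap2 was at 28.5, 27.6 and 28.4 CPM in the sham livers and 33.6, 23.5 and 21.7 CPM after VSG (log2 fold change -0.10, adjusted p = 0.706 by edgeR), which overlapped as Psmb8 did.

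**Figure D5:**
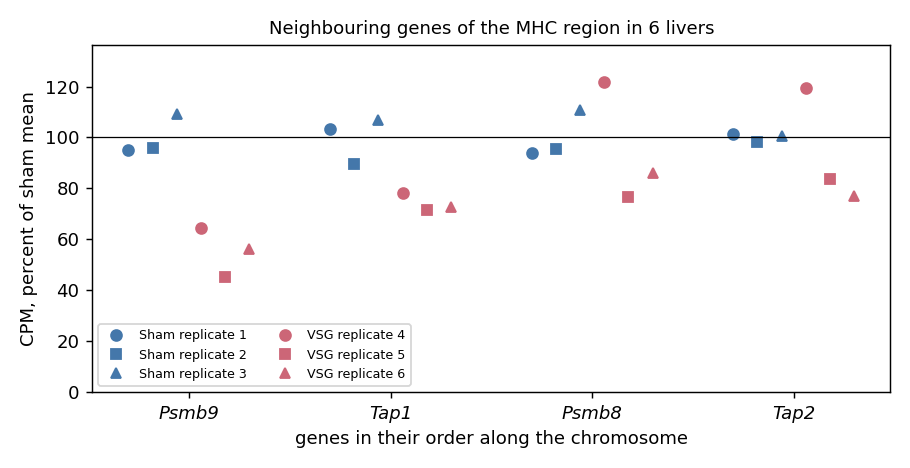
Level of Psmb9, Tap1, Psmb8 and Tap2 in each of the 6 livers as percent of the sham mean (vertical axis, from 0), with the genes in their order along chromosome 17. The VSG livers lie below all sham livers for Psmb9 and Tap1 and on both sides of the line at 100 for Psmb8 and Tap2.

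The 7 alpha ring genes (Psma1 to Psma7), which form the gates of the core, had the median nearest to 0 within the core. None passed the test, the median log2 fold change was -0.10 and the values ran from -0.35 to -0.03. Psma2 had the lowest value, at 41.9, 49.0 and 44.6 CPM in the sham livers and 38.0, 32.2 and 36.4 CPM after VSG. All VSG livers were below the sham livers (log2 fold change -0.35, SE 0.105, adjusted p = 0.0701 by edgeR). The only other alpha gene without overlap was Psma1, with a log2 fold change of -0.28. The 4 beta ring genes without a cutting site (Psmb1 to Psmb4) lay close together, between -0.18 and -0.13, and none passed the test. The 3 constitutive catalytic genes had a median of -0.40. The median was thus lower for the catalytic subunits than for the other constitutive core subunits, a difference that was not tested.

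In the 19S particle, 2 of 17 genes fell, both outside the ATPase ring, where 7.87% of all genes tested fell. Psmd8 encodes Rpn12, a subunit of the lid. Its level was 148.8, 123.5 and 148.9 CPM in the sham livers and 90.8, 86.4 and 86.8 CPM after VSG. The VSG livers were tightly grouped and far below the sham livers. Psmd8 fell by 37.3% (log2 fold change -0.67, SE 0.112, adjusted p = 0.0166 by edgeR), and the call was lost without Sham 3 (adjusted p = 0.0873 by edgeR) and without VSG 6 (adjusted p = 0.0756 by edgeR). Psmd14 encodes Rpn11, the deubiquitinase that removes the ubiquitin chain as the substrate enters. It was at 47.7, 57.3 and 55.2 CPM in the sham livers and 37.1, 33.9 and 43.0 CPM after VSG. The groups did not overlap, and Psmd14 fell by 28.9% (log2 fold change -0.49, SE 0.123, adjusted p = 0.0431 by edgeR). Leaving out any 1 of the 6 libraries ended that call (adjusted p = 0.0527 to 0.150 by edgeR).

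The other 9 genes of the non-ATPase part had log2 fold changes from -0.31 to 0.00. Psmd4, for the ubiquitin receptor Rpn10, had -0.31 (adjusted p = 0.0901 by edgeR) and Psmd1 and Psmd2, for the large scaffold subunits, had -0.27 and -0.23. Psmd6, Psmd7 and Psmd12 lay at -0.03, -0.06 and 0.00. The 6 ATPase genes (Psmc1 to Psmc6) had a median of -0.16, and none passed the test. Psmc4 was lowest at -0.30 (SE 0.0962, adjusted p = 0.0785 by edgeR), with no overlap between the groups. Psmc6 was the one constitutive gene with a positive value (86.2, 95.3 and 76.3 CPM in sham, 78.7, 89.1 and 97.7 CPM after VSG, log2 fold change 0.04, adjusted p = 0.836 by edgeR), and its sign turned under total counts (-0.10).

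Regulators outside the PA28 pair differed from each other. Psmf1 encodes PI31, first described as an inhibitor of the core. It was at 35.1, 38.1 and 35.1 CPM in the sham livers and 22.9, 27.4 and 24.3 CPM after VSG. The gap between the groups was wide against the spread within them, and Psmf1 fell by 31.1% (log2 fold change -0.54, SE 0.102, adjusted p = 0.0219 by edgeR). The call was lost without Sham 2, Sham 3, VSG 4 or VSG 6 (adjusted p = 0.0690, 0.0939, 0.0536 and 0.0876 by edgeR). Psme3, for the nuclear PA28 gamma, had -0.29 (adjusted p = 0.122 by edgeR). Psme4 encodes the nuclear activator PA200. It was at 155.8, 178.2 and 153.4 CPM in the sham livers and 145.1, 173.8 and 182.3 CPM after VSG (log2 fold change 0.04, adjusted p = 0.848 by edgeR), and its sign turned under total counts (-0.10).

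Of the 7 assembly chaperones, which help to build the core (Psmg1 to Psmg4) and the ATPase ring (Psmd5, Psmd9 and Psmd10), none passed the test. The median was -0.27. Psmd5 had the lowest value, at 34.2, 38.0 and 36.8 CPM in the sham livers and 26.6, 30.3 and 30.3 CPM after VSG. Its groups did not overlap (log2 fold change -0.32, SE 0.0967, adjusted p = 0.0693 by edgeR), and DESeq2 and total counts called it. Psmd10, for gankyrin, had the only positive value, at 13.1, 10.7 and 13.1 CPM in the sham livers and 17.0, 10.1 and 14.3 CPM after VSG, which overlapped (log2 fold change 0.17, SE 0.205, adjusted p = 0.587 by edgeR).

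The last 4 symbols of the rule were barely detected or not detected. Psmb11, the thymus-specific catalytic subunit, had 0 counts in all 6 libraries, which allows up to 3 counts per library, and was not tested. Psma8, a testis subunit, was seen with 45, 40 and 14 counts in the sham livers and with 17, 5 and 7 after VSG. Sham 3 was below VSG 4, and the log2 fold change of -1.60 had an SE of 0.627 (adjusted p = 0.127 by edgeR). Psmc3ip, which carries the symbol but encodes a meiotic recombination cofactor, was below 1 CPM in every liver (log2 fold change 0.67, SE 0.460, adjusted p = 0.335 by edgeR). Psme2b, a single-exon copy of Psme2, was also below 1 CPM in every liver (log2 fold change 0.00, adjusted p = 0.992 by edgeR), and reads of the copy and of Psme2 could be confused.

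Although subunits assemble in equal number, their transcripts did not have equal levels per length. Among the 14 constitutive core genes, FPKM (CPM per kilobase of summed exon length) ran from 4.70 for Psma3 to 76.6 for Psma6 in sham livers, a 16.3-fold range. On the length of the principal transcript the same genes were at the ends and the range was 14.1-fold. Among the 17 constitutive 19S genes the range was 3.10-fold in sham livers. Psmd8 had the highest FPKM of those 17 in sham livers (45.9), and in VSG livers Psmc1 had the highest (38.6). On the principal transcript length Psmd8 remained the highest in both groups.

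Genes that work with the proteasome but do not carry its symbols had a similar median. Of 20 partners (shuttle factors, deubiquitinases, the maturation factor Pomp and others), 19 were tested and 1 (Paaf1) was not analysed here. Their median log2 fold change was -0.21, 15 of 19 were negative, and 1 fell (5.26%, against 7.87% of all genes tested). That gene, Ube3c, encodes a ubiquitin ligase at the proteasome and was at 71.5, 80.6 and 79.8 CPM in the sham livers and 56.4, 59.2 and 57.4 CPM after VSG (log2 fold change -0.42, SE 0.0889, adjusted p = 0.0286 by edgeR). All VSG livers were lower, and 8 of 12 alternatives called it (adjusted p up to 0.123 by edgeR in fits without 1 library). Pomp had -0.24 (adjusted p = 0.162 by edgeR).

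None of the 4 tested regulators of proteasome genes passed the test. Nfe2l1, whose product NRF1 drives proteasome genes when the proteasome is impaired, was at 153.8, 208.4 and 177.4 CPM in the sham livers and 163.2, 147.5 and 126.9 CPM after VSG (log2 fold change -0.30, adjusted p = 0.221 by edgeR). VSG 4 was above the lowest sham liver, so the groups overlapped. Ddi2, for the protease that activates NRF1, was higher in every VSG liver, at 0.41 (adjusted p = 0.118 by edgeR), and Nfe2l2 had -0.42 (adjusted p = 0.139 by edgeR). Of 6 genes for ubiquitin and its activating enzymes, none passed the test.

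Among genes of interferon gamma signalling, which induces the immunoproteasome, Irf1, a transcription factor of the pathway, had a log2 fold change of 0.38 (adjusted p = 0.330 by edgeR), and the class I activator Nlrc5 had 0.09 (adjusted p = 0.720 by edgeR). Neither passed the test. Ifng itself was at or below the floor of 3 counts in every library and was not tested.

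Of 11 genes of class I antigen processing, 2 fell, Tap1 and H2-K1, where 7.87% of all genes tested fell. H2-K1, a class I heavy chain, had a log2 fold change of -0.63 (adjusted p = 0.0417 by edgeR), and 7 of 12 alternatives called it, the others being fits without 1 library (adjusted p up to 0.161 by edgeR). B2m, the class I light chain, had -0.61 (adjusted p = 0.0657 by edgeR), with no overlap between the groups. Calr and Pdia3, of the peptide loading complex, had positive values of 0.51 and 0.44 and did not pass the test.

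The tissue carried hepatocyte markers at high levels in all 6 livers, and none of the 7 hepatocyte markers passed the test. These 7 did not move alike, with 3 negative and 4 positive log2 fold changes. Ttr had -0.83 (adjusted p = 0.103 by edgeR) and was lower in every VSG liver. Trf had 1.25 (adjusted p = 0.132 by edgeR), with overlap between the groups. Immune cells use the immunoproteasome genes too, and their marker lists differed in how many members passed the test, where 6.79% of all genes tested rose. All 10 neutrophil markers rose, with a summed level of 7.30 to 21.0 CPM in the sham livers and 127 to 1585 CPM after VSG, and none of the 10 was at 0 in a VSG liver. All 10 calls were lost without Sham 3 and without VSG 6, 9 without Sham 2, 4 without Sham 1 and 1 without VSG 4, and limma-voom did not call 7 of the 10. Only 3 of the 10 were tested when at least 10 counts were required in every library, and all 3 were called. The others had fewer than 10 counts in at least 1 sham liver and passed the main filter through the VSG livers. Of the 8 macrophage markers, 3 rose (37.5%, summed 342 to 726 against 732 to 2134 CPM), and of the 6 B cell markers 1 rose (16.7%), Jchain, a gene of antibody-secreting cells (summed 7.21 to 12.2 against 30.4 to 36.8 CPM). The 3 macrophage calls were lost without Sham 2, Sham 3 or VSG 6, 2 of them without VSG 4, and 1 with scaling to total counts. None of 9 tested T and NK cell markers (summed 7.90 to 9.72 against 8.71 to 15.3 CPM) and none of 5 markers of all leukocytes (summed 89.0 to 180 against 121 to 349 CPM) passed the test. The summed levels of the neutrophil, macrophage and B cell lists were higher in VSG livers without overlap, where Psmb9 was lower, and those of the other two lists overlapped. Their part in the immunoproteasome values was not tested.

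Within the VSG group all 5 immunoproteasome genes ranked the livers in the same order, VSG 4 above VSG 6 above VSG 5. All 10 neutrophil markers had that order as well. The summed CPM of the macrophage list had it too (2134, 1349 and 732 in VSG 4, 6 and 5). So did that of the markers of all leukocytes (349, 227 and 121) and those of the T and NK cell and B cell lists. The order was thus not particular to neutrophil markers. Among single genes it was found in 5 of the 31 constitutive genes (16.1%) and in 24.9% of all genes tested. The order was noticed after the values were seen, the genes share the same 3 libraries, and it is given as a description.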

How the data were processed

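Per the labels and the study's methods, the authors sequenced strand-specific poly(A) libraries from about 40 mg of liver per animal, checked the reads with FastQC 0.10.1, aligned them with STAR 2.6.0 to mm10 and counted them with featureCounts 2.0.3 (versions from the submitters' processing notes, where the study's methods name another featureCounts version). The deposited values are raw counts per gene. Which annotation was used, whether strand entered the counting, and how multi-mapping or overlapping reads were handled are not given in the sources used here, so values of overlapping genes and of near-identical copies are uncertain. Exon bases were shared with another gene in 14 of the 50 genes, and in 6 of them (Psmb7, Psmb9, Psmc3, Psmc3ip, Psmd13 and Psme1) that gene reached 100 counts in a library. All 50 identifiers, versions and positions equal those of GENCODE M21.

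The test was that of edgeR 4.0.16 (R 4.3.3; filterByExpr with a minimum count of 10 and a total of 15, TMM factors of 0.897 to 1.15, glmQLFit and glmQLFTest with group as the only term), with Benjamini-Hochberg adjustment over 14454 genes and a threshold of 0.05. The standard error is the log2 fold change divided by the square root of F. The script was tested on simulated data with 200 changed genes, whose fold changes were recovered in the median but few of which passed the threshold. Ratios were tested by exact permutation in scipy 1.17.1. Libraries of a group differed by more than sampling noise (chi-square per degree of freedom at least 27.5), and all 6 were kept. Groups came from the sample titles. p-values measure the spread between these animals.

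Alternatives were DESeq2 1.42.0, limma-voom (limma 3.58.1), RLE size factors, total counts, a filter of at least 10 counts in every library, no filter beyond 1 count, and leaving out each library. The principal-transcript length and the count of negative values under these settings were added after seeing the data. Named were the immunoproteasome genes, the constitutive catalytic genes, and of the rest the 6 with the largest negative and up to 6 with the largest positive log2 fold changes, of which 5 exist. Others are named within their role or list. The genes, the lists and the tests were chosen with earlier results of these data known. Some genes of the lists are not reported here.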

Additional observations from a re-analysis of the deposited data

How the results depend on the processing

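The 4 called genes were also the genes called by limma-voom, RLE size factors, no filter beyond 1 count and at least 10 counts in every library. DESeq2 called 9 members (5 constitutive and 2 immunoproteasome genes), where 12.3% of all genes were lower, and scaling by total counts called 12 (8 constitutive), where 10.5% were lower. Leaving out each library in turn gave 0 to 3 called members, 0 to 1 constitutive and 0 to 1 immunoproteasome genes. None was called without Sham 3 or without VSG 6, while 47 and 46 members had a negative value there, and 39 to 47 over the 6 fits. The cause was not tested. The difference between the immunoproteasome and constitutive medians was -0.17 to -0.16 under the other settings. Without 1 library, the log2 ratio difference ran from -0.75 to -0.45 for Psmb9 to Psmb6, 0.23 to 0.42 for Psmb8 to Psmb5 and 0.04 to 0.42 for Psmb10 to Psmb7.

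No called gene turned its sign. The sign turned in at least 1 alternative in 11 of the 49 genes, none of them called (Psma3, Psma4, Psmb8, Psmc6, Psmd6, Psmd7, Psmd10, Psmd12, Psme2b, Psme4 and Psmg2). Under total counts the log2 fold change was -0.10 for Psmc6, -0.10 for Psme4 and -0.13 for Psme2b, which was also -0.0065 with DESeq2, -0.0066 with RLE size factors and -0.027 with no filter beyond 1 count. Without 1 library the values ran from -0.30 to 0.034 for Psmb8, -0.043 to 0.12 for Psmc6, -0.0078 to 0.33 for Psmd10, -0.21 to 0.13 for Psme2b and -0.026 to 0.13 for Psme4. No paired analysis was possible because the sample numbers (1 to 3 for sham, 4 to 6 for VSG) are not shared between the groups. With 3 livers a group, changes of the size of most subunits, near 0.2 on the log2 scale with standard errors near 0.1, could not be told from none after adjustment.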
